A study of Homo sapiens with 11 samples.

Results

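The genes described here are 52 genes of mitosis, the stage of the cell cycle in which chromosomes are condensed, attached to the spindle and shared between daughter cells. They were chosen by name as textbook genes of the mitotic spindle, the kinetochore and cytokinesis. No rule on a measured value was used, but earlier results of these data were known when they were chosen. Each is represented by the probe set with the highest mean over the arrays. All 52 were among the 12326 genes that could be tested, and all of them exceeded the 60th percentile of at least 1 array, the filter set on dim probe sets. The study measured messenger RNA on Affymetrix arrays to ask which genes answer to the fusion oncoprotein EWS-FLI1 and which of those depend on the forkhead transcription factor FOXO1.

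All 11 arrays came from A673sh cells, an Ewing sarcoma line that carries a doxycycline-inducible short hairpin RNA (shRNA) against EWS-FLI1 and was kept in blasticidine and zeocin. In 4 groups of 2 arrays the cells were transiently transfected with an sh-scrambled or an sh-FOXO1 plasmid and either left without doxycycline or given 1 µg/ml of it for 48 h, which turns on the EWS-FLI1 shRNA. In 3 groups of 1 array each, all without doxycycline, the cells received the empty pCDNA3 vector, FLAG-FOXO1-AAA, which AKT cannot phosphorylate (AKT-resistant), or FLAG-FOXO1-S249A/S298A, which CDK2 cannot phosphorylate (CDK2-resistant). No group received doxycycline without the EWS-FLI1 hairpin, so the drug and the knockdown cannot be told apart. The labels do not say that the 2 arrays of a group came from separate cultures, so the p-values take in only how far these samples spread, and that spread may be technical.

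Mitotic genes are transcribed in a wave that peaks between S phase and mitosis. Cyclin B with CDK1 drives entry, the kinetochore ties each chromosome to spindle microtubules, the spindle checkpoint holds back the anaphase-promoting complex until all chromosomes are attached, and the central spindle and contractile ring then separate the daughter cells. Many of these genes carry in their promoters a cell cycle genes homology region (CHR), bound by the DREAM complex in resting cells and by MYBL2 and FOXM1 complexes in cycling cells, and CCAAT boxes bound by NF-Y. In Ewing sarcoma, EWS-FLI1 is known to keep cells in cycle.

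Checks of the arrays came first. Without doxycycline FOXO1 read 5.86 and 5.81 on the log2 scale with sh-scrambled and 4.97 and 4.80 with sh-FOXO1. With doxycycline it read 7.35 and 7.04 with sh-scrambled and 5.76 and 5.75 with sh-FOXO1, so the silenced cells were lower on either side of the knockdown. FLI1, which the EWS-FLI1 transcript contains in part, read 8.84 and 8.71 in sh-scrambled cells and 6.92 and 6.93 after doxycycline. All 8 Ewing sarcoma markers listed exceeded the filter, and none of the 6 blood cell markers did. Of 5 endothelial markers 3 exceeded it, and of these KDR rose with doxycycline (log2 fold change 2.40) and with FOXO1 silencing (2.102 without and 1.56 with doxycycline), while PECAM1 (5.79 to 6.05 on all arrays) and TEK (5.40 to 6.05) did not. Of 6 epithelial markers KRT8 and KRT18 exceeded it, and neither was called. Of 10 reference genes HPRT1 fell with doxycycline (−1.004) and the others stood between −0.39 and 0.23. Array medians lay between 5.10 and 5.12 on the plasmid arrays and between 5.14 and 5.17 on the shRNA arrays. The 3′ minus 5′ difference of the ACTB control probe sets, a sign of RNA integrity, was 0.30 to 0.53 on the former and 0.76 to 1.05 on the latter, and its part in differences between these sets of arrays was not tested.

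Promoter sequences show what the genes share beyond their function. RefSeq windows (GRCh38.p14) from 250 bases before to 50 bases after the first listed start were found for 46 of the 52 genes, the exceptions being AURKA, BIRC5, BUB3, TPX2, TTK and UBE2C. The CHR letters TTTGAA stood, on either strand, in 33 of the 46 windows (71.7%), against 9.86% of the 9989 windows of tested genes. CCAAT stood in 35 (76.1%), against 36.5%, and both stood in 25 (54.3%), against 4.14%. In 29 of the 33 windows a TTTGAA lay no more than 100 bases before the start or after it. The forkhead letters GTAAACA were in 1 window (2.17%, that of CDK1), against 2.25%, the ETS letters CGGAAG in 16 (34.8%), against 32.5%, and the E2F letters GGCGGGA in 12 (26.1%), against 24.9%. Matches of different motifs were counted separately even where they overlapped. A match is a description of letters and not a measured site.

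The 5 windows below run from 170 bases before to 20 bases after the start, 5′ to 3′ on the gene's own strand. They are shown for the 4 genes with a listed window that had the most negative values after FOXO1 silencing with doxycycline, and for CENPK, which had a positive one. Capitals mark the CHR letters TTTGAA and the CCAAT box, or on the opposite strand TTCAAA in place of the former and, for the box, the letters ATTGG. SPC25 lies at chr2:168890411-168890600 on the minus strand, CCNB2 at chr15:59104976-59105165 on the plus strand, TOP2A at chr17:40417877-40418066 on the minus strand, CDC20 at chr1:43358811-43359000 on the plus strand and CENPK at chr5:65563149-65563338 on the minus strand.
SPC25: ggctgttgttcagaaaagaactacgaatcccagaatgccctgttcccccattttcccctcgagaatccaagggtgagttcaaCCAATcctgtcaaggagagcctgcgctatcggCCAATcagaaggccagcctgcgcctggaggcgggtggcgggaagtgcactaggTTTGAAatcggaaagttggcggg
CCNB2: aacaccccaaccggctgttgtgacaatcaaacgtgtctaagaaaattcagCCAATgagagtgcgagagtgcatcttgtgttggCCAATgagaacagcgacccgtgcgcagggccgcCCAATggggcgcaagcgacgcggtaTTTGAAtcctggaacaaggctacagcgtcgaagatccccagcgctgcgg
TOP2A: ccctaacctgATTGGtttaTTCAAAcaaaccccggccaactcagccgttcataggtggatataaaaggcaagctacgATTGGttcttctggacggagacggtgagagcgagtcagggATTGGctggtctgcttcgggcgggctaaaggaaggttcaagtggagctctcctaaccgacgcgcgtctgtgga
CDC20: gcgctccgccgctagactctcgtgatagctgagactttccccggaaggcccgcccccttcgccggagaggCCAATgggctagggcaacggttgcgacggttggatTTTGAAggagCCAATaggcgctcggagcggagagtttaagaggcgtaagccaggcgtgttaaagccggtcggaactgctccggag
CENPK: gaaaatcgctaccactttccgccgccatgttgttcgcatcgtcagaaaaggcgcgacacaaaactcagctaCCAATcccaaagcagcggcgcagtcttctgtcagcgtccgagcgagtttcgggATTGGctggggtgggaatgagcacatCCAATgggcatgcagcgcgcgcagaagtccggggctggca
The windows of SPC25, CCNB2 and CDC20 hold 1 TTTGAA each within 100 bases of the start with 2, 3 and 2 CCAAT boxes upstream or beside it. That of TOP2A holds 1 CHR, in reverse and far upstream, with 3 boxes, and that of CENPK holds 3 boxes and no CHR. Among all 46 genes, those with a CHR (33) had a median log2 fold change after EWS-FLI1 knockdown of −1.62 and those without (13) one of −1.70. After FOXO1 silencing with doxycycline, by which the printed windows were chosen, the medians were close as well, −0.49 with a CHR and −0.47 without.

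In sh-scrambled cells, 47 of the 52 mitotic genes fell after doxycycline and none rose, where a call needed a limma adjusted p under 0.05 together with a log2 fold change beyond 1. Of all 12326 genes, 6.32% fell and 7.03% rose under the same rule. The log2 fold changes ran from −2.24 (SPC25) to −0.62 (SMC4) with a median of −1.63, against a median of −0.04 over all genes tested. By the adjusted p alone all 52 were lower, against 33.9% of all genes, and 0 were higher at an unadjusted p under 0.05 (limma). In each of the 52 genes both arrays with doxycycline lay below both arrays without it, which held for 43.1% of all genes. On these bulk samples fewer cells in mitosis and less of each transcript per cell cannot be told apart.

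**Figure D1:**
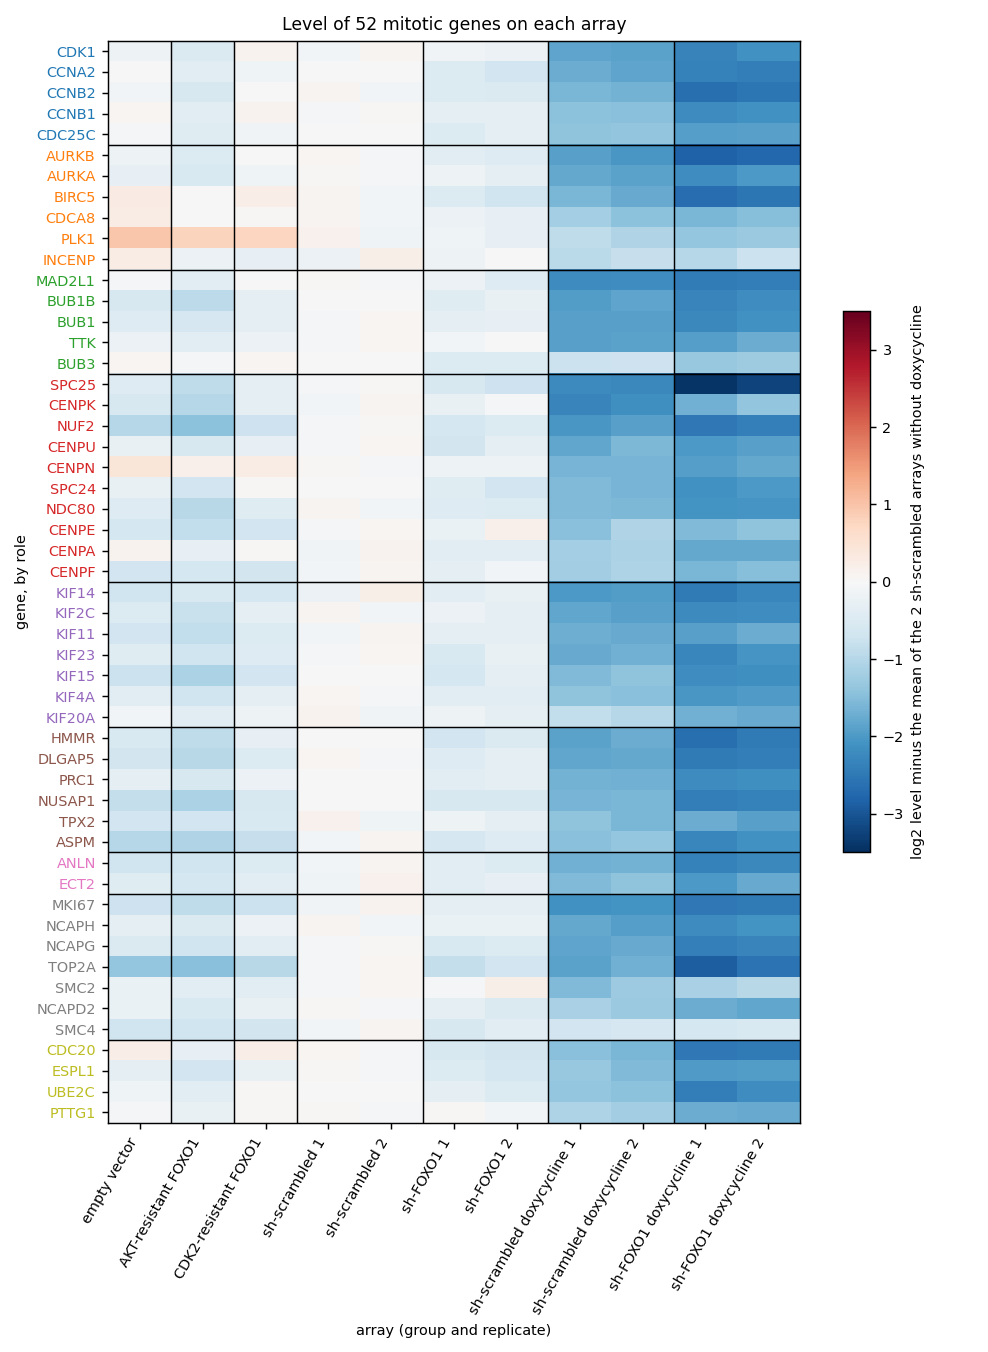
Each row is 1 of the 52 mitotic genes, grouped by role (label colours and lines), and each column 1 of the 11 arrays; colour gives the log2 level minus the gene's mean over the 2 sh-scrambled arrays without doxycycline. All 52 genes are blue on the 4 arrays with doxycycline, with array medians between −2.18 and −1.61.

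All 5 genes of the cyclin and CDK1 group fell, with a median of −1.63. CDK1, the kinase that drives entry into mitosis, read 10.98 and 11.18 in sh-scrambled cells and 9.22 on both arrays with doxycycline, the largest fall of the group at −1.86 ± 0.09 (SE, adjusted p = 1.6e-07, limma). The S and M phase cyclin CCNA2 followed at −1.80, then the B-type cyclins CCNB2 at −1.63 and CCNB1 at −1.46, and CDC25C, the phosphatase that activates CDK1, at −1.40. In none of them did the groups overlap.

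Of the 6 mitotic kinases and members of the chromosomal passenger complex, which corrects faulty attachments, 4 fell. AURKB, the kinase of that complex, read 9.14 and 9.01 without doxycycline and 7.17 and 7.03 with it, a log2 fold change of −1.97 ± 0.08 (SE, adjusted p = 4.1e-08, limma). AURKA, which builds the spindle poles, stood at −1.83, BIRC5 (survivin) at −1.68 (−0.80 on another probe set) and CDCA8 (borealin) at −1.31. PLK1 and INCENP did not reach the limit of 1. PLK1, a kinase with tasks throughout mitosis, went from 6.29 and 6.01 to 5.26 and 5.11 (−0.96 ± 0.10, adjusted p = 2.7e-05, limma). INCENP, the scaffold of the passenger complex, went from 6.26 and 6.65 to 5.51 and 5.65 (−0.87 ± 0.14, adjusted p = 0.00037, limma). With doxycycline both genes lay under the 60th percentile of these arrays (5.72). Whether so dim a signal made their falls look smaller was not tested.

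In the spindle checkpoint 4 of 5 genes fell, with a median of −1.89. MAD2L1, which forms the inhibitor of the anaphase-promoting complex, read 11.02 and 10.93 without and 8.78 and 8.80 with doxycycline (−2.18 ± 0.09, adjusted p = 4e-08, limma). The checkpoint kinases BUB1 (−1.89) and TTK (−1.89) and the checkpoint protein BUB1B (−1.90) lay close together. BUB3, which brings BUB1 and BUB1B to the kinetochore, was 10.93 on both arrays without and 10.18 and 10.20 with doxycycline. Its difference was smaller, at −0.74 ± 0.06 (adjusted p = 6.5e-06, limma). On other BUB3 probe sets above the filter it was smaller still, at −0.345, −0.077 and −0.519.

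All 10 kinetochore and centromere genes fell, with a median of −1.61. SPC25, a subunit of the NDC80 complex that binds microtubules, had the most negative value of all 52 genes. It read 9.78 and 9.84 without doxycycline and 7.57 on both arrays with it (−2.24 ± 0.08, adjusted p = 2.6e-08, limma), a 4.73-fold difference. The other subunits of that complex fell as well, NUF2 with −1.97, SPC24 with −1.59 (−0.21 on another probe set, with a mean of 5.85) and NDC80 with −1.55. Among genes of the inner kinetochore, CENPK stood at −2.23, CENPU at −1.70 (−0.85 and −1.34 on other probe sets) and CENPN at −1.63. The centromeric histone CENPA (−1.16), the motor CENPE (−1.26) and the outer kinetochore protein CENPF (−1.15) changed least in the group.

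Of 7 kinesins, motors that move along microtubules, 6 fell. KIF14, which acts in cytokinesis, read 9.14 and 9.54 without and 7.33 and 7.38 with doxycycline (−1.98 ± 0.13, adjusted p = 7.9e-07, limma). KIF2C, a microtubule depolymerase, stood at −1.85, KIF11, which pushes the spindle poles apart, at −1.73, KIF23, a motor of the central spindle, at −1.72, KIF15 at −1.47 and the chromosome-bound KIF4A at −1.44. KIF20A, needed for cytokinesis, went from 9.76 and 9.50 to 8.76 and 8.63 and missed the limit (−0.94 ± 0.10, adjusted p = 2.6e-05, limma).

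All 6 genes of spindle assembly and microtubule bundling fell, between −1.81 and −1.41. HMMR, a spindle pole protein, read 9.71 and 9.75 without and 7.85 and 7.99 with doxycycline (−1.81 ± 0.09, adjusted p = 1.5e-07, limma). DLGAP5 (−1.80), the bundler of the central spindle PRC1 (−1.67), NUSAP1 (−1.61), the spindle assembly factor TPX2 (−1.51) and the spindle pole protein ASPM (−1.41) followed. Both genes of cytokinesis fell. ANLN, the scaffold of the contractile ring, went from 10.36 and 10.55 to 8.79 and 8.81 (−1.65 ± 0.08, adjusted p = 1.6e-07, limma), and ECT2, which activates RhoA at the cleavage plane, stood at −1.48.

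Of the 7 genes of chromosome structure, 6 fell. MKI67, the Ki-67 protein that coats mitotic chromosomes, read 10.05 and 10.30 without and 8.05 and 8.10 with doxycycline (−2.10 ± 0.09, adjusted p = 4.1e-08, limma). The condensin I subunits NCAPH (−1.87), NCAPG (−1.81) and NCAPD2 (−1.23), the topoisomerase TOP2A (−1.78) and SMC2 (−1.42), which both condensins share, fell too. SMC4, the partner of SMC2, was the gene with the smallest change, from 11.02 and 11.18 to 10.44 and 10.51 (−0.62 ± 0.09, adjusted p = 0.00023, limma), though another probe set of it stood at −1.07. All 4 genes of anaphase fell. CDC20, the activator of the anaphase-promoting complex, went from 10.34 and 10.19 to 8.79 and 8.67 (−1.53 ± 0.08, adjusted p = 2e-07, limma), the separase ESPL1 stood at −1.44, the ubiquitin-conjugating enzyme UBE2C at −1.39 and the securin PTTG1 at −1.16.

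In sh-FOXO1 cells doxycycline was followed by lower levels of 49 of the 52 genes, against 5.51% of all genes, and none rose, against 6.13% (0 at an unadjusted p under 0.05, limma). The median log2 fold change was −1.77, against −0.05 over all genes, and in 51 genes both arrays with doxycycline lay below both without, against 44.8% of all genes. The 6 largest falls were those of SPC25 (−2.71 ± 0.08 SE), AURKB (−2.37 ± 0.08), MKI67 (−2.17 ± 0.09), MAD2L1 (−2.10 ± 0.09), CCNB2 (−2.09 ± 0.08) and CDK1 (−2.07 ± 0.09). INCENP (−0.79), BUB3 (−0.82) and SMC4 (−0.11) were not called, and of these SMC4 also failed on its adjusted p (0.34, limma). SMC4 read 10.54 and 10.73 in sh-FOXO1 cells and 10.48 and 10.57 after doxycycline, so the groups overlapped. On other probe sets CENPU (−0.30 and −0.56), SPC24 (−0.21) and SMC2 (−0.997) lay short of the limit.

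**Figure D2:**
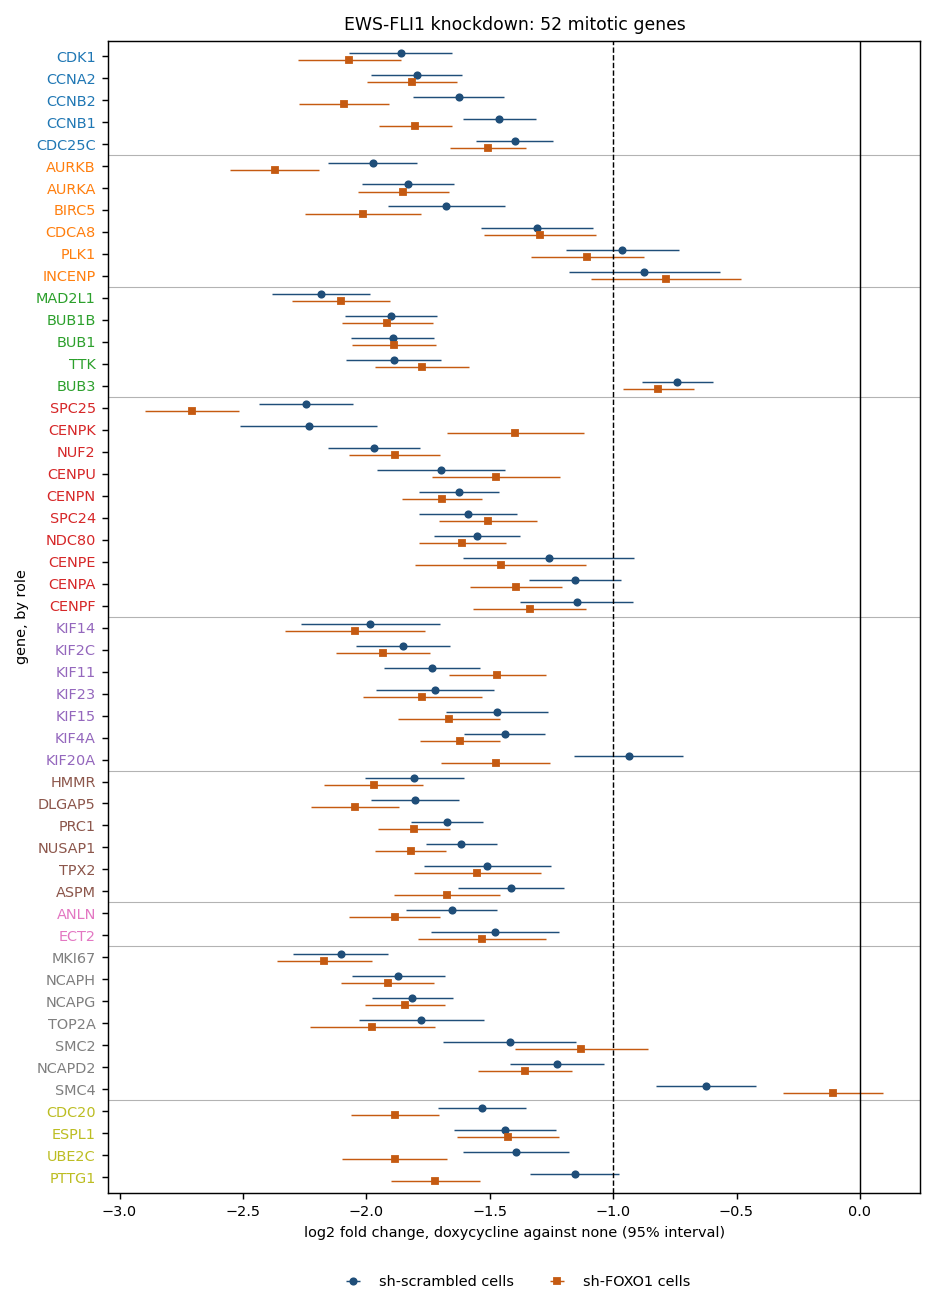
Points give the log2 fold change of each of the 52 genes between arrays with and without doxycycline in sh-scrambled cells (circles) and sh-FOXO1 cells (squares), with 95% intervals from limma; the dashed line marks −1, and label colours mark roles. All 52 points of either kind lie below 0, and SMC4 in sh-FOXO1 cells lies nearest to it.

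FOXO1 silencing was set against sh-scrambled on arrays with doxycycline, where FOXO1 differed by −1.44 ± 0.11 (SE). Here 11 mitotic genes fell and none rose, with the limit on the log2 fold change at 0.7, against 2.01% of all genes lower and 2.39% higher. The median of the 52 was −0.48, against −0.002 over all genes, and 48 values were negative, against 50.4% of all genes. Without the limit on the fold change, 41 of the 52 were lower at an adjusted p under 0.05 (15.3% of all genes) and 2 were higher, the number also found at an unadjusted p under 0.05.

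The 11 genes came from 7 of the 9 roles. SPC25 read 7.57 on both sh-scrambled arrays with doxycycline and 6.38 and 6.56 on the sh-FOXO1 arrays with doxycycline (−1.10 ± 0.08, adjusted p = 4.1e-05, limma), a 2.14-fold difference. CCNB2 read 8.86 and 8.81 against 7.82 and 7.94 (−0.96 ± 0.08, adjusted p = 6.1e-05, limma). In both genes the groups were more than 0.8 apart. TOP2A read 9.32 and 9.50 against 8.31 and 8.61 (−0.95 ± 0.11, adjusted p = 0.00034, limma), and CDC20 8.79 and 8.67 against 7.77 and 7.80 (−0.95 ± 0.08, adjusted p = 5.9e-05, limma). BIRC5 read 8.09 and 7.93 against 7.01 and 7.15 (−0.93 ± 0.10, adjusted p = 0.00025, limma), and UBE2C 9.29 and 9.19 against 8.20 and 8.45 (−0.91 ± 0.09, adjusted p = 0.00017, limma). None of these 6 genes had overlapping groups, and in 45 of the 52 both sh-FOXO1 arrays lay below both sh-scrambled ones, against 34.4% of all genes. The remaining 5 were AURKB (−0.81), ASPM (−0.79), KIF20A (−0.79), NUSAP1 (−0.77) and HMMR (−0.75). ASPM and HMMR stood at −0.70 and −0.68 when the first sh-FOXO1 array with doxycycline was left out, and HMMR at −0.68 without the second sh-scrambled one.

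Of the 5 spindle checkpoint genes none passed the limit (4 had an unadjusted p under 0.05, limma), with a range from −0.55 (BUB3) to 0.07 (TTK), nor did those of cytokinesis, ANLN (−0.66) and ECT2 (−0.40). Of the NDC80 complex SPC25 fell, while NDC80 (−0.52), NUF2 (−0.48) and SPC24 (−0.47) had negative values short of the limit. CCNB1 missed it narrowly at −0.69. Other probe sets above the filter read some of these genes differently, as values without a test. Of the genes not called, MKI67 stood at −1.18 and −1.17 on 2 other probe sets against −0.38 on the one used, CCNA2 at −1.11 against −0.59, CENPU at −0.81 against −0.25 and ANLN at −0.76 against −0.66. Of those called, BIRC5 stood at −0.38 and ASPM at −0.65 on another probe set, short of the limit. Values above 0 were found for CENPK (0.70), SMC2 (0.37), TTK (0.07) and SMC4 (0.05), and CENPK missed the limit by less than its SE of 0.12.

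Without doxycycline, when FOXO1 was 0.95 ± 0.11 (SE) lower in the sh-FOXO1 cells, TOP2A was the only mitotic gene called, against 1.53% of all genes lower and 2.73% higher. It read 11.13 and 11.24 in sh-scrambled cells and 10.35 and 10.51 in sh-FOXO1 cells (−0.75 ± 0.11, adjusted p = 0.0012, limma). The call ended when the first sh-FOXO1 array (−0.67) or the second sh-scrambled array (−0.70) was left out, and without the former BIRC5 and SPC25 were called instead, each at −0.71. The median of the 52 genes was −0.39, against 0.01 over all genes, and 51 values were negative, against 47.8% of all genes. At an adjusted p under 0.05 alone (limma) 36 genes were lower, against 14.8% of all genes. The most negative values after TOP2A were those of SPC25 (−0.64), BIRC5 (−0.59), CDC20 (−0.59), HMMR (−0.59), CCNA2 (−0.57) and NUSAP1 (−0.56). SMC2, at 0.08, was the gene with a positive value. On other probe sets, again as values without a test, 5 genes not called lay past the limit, CENPU (−1.60 and −1.03), ASPM (−1.08), MKI67 (−0.85 and −0.81), MAD2L1 (−0.84) and NUSAP1 (−0.70), and TOP2A lay short of it (−0.63). Those of CENPU (means over the arrays 5.64 and 5.96) and MAD2L1 (5.635) were dim. The probe sets used for these genes had means of 10.13 and 10.04.

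The interaction tests whether the change after EWS-FLI1 knockdown differed between sh-FOXO1 and sh-scrambled cells. Of the 52 genes CENPK was called, with a smaller fall in the silenced cells, against 1.22% of all genes called in that direction and 2.3% in the other. Without doxycycline CENPK read 9.36 and 9.56 with sh-scrambled and 9.21 and 9.43 with sh-FOXO1, and with doxycycline 7.15 and 7.31 against 7.77 and 8.08. The groups without doxycycline overlapped and those with it did not. The difference between the changes was 0.84 ± 0.17 (SE, adjusted p = 0.018, limma). It was not called when the first sh-scrambled array with doxycycline (0.76), the first sh-FOXO1 array (0.72) or the second sh-FOXO1 array with doxycycline (0.69) was left out. CENPK has 1 probe set on the array, so no other reading of it was had. CENPU lay past the limit on another probe set (0.78, against 0.22 on the one used), as a value without a test. That probe set was dim, with a mean of 5.64 over the arrays.

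At an adjusted p under 0.05 alone, 5 more genes differed, 4 of them with a negative interaction, against 5.47% of all genes, and SMC4 with a positive one. The change of PTTG1 after knockdown was more negative in silenced cells (interaction −0.56 ± 0.11, adjusted p = 0.015, limma). It read 11.40 and 11.34 against 11.41 and 11.26 without doxycycline, and 10.29 and 10.14 against 9.63 and 9.60 with it, so that sh-scrambled and sh-FOXO1 cells overlapped without the drug and were apart with it. KIF20A (−0.54), CCNB2 (−0.46) and SPC25 (−0.46) had the same direction, and SMC4 the opposite one (0.52 ± 0.13, adjusted p = 0.036, limma). For SMC4, silencing alone stood at −0.47 and silencing with doxycycline at 0.05. The median interaction of the 52 genes was −0.08, against −0.005 over all genes. Where a gene had a further probe set above the filter, its interaction had the same sign in 27 of 39 cases, against 39 of 39 for either knockdown comparison and 36 of 39 for either silencing comparison.

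**Figure D3:**
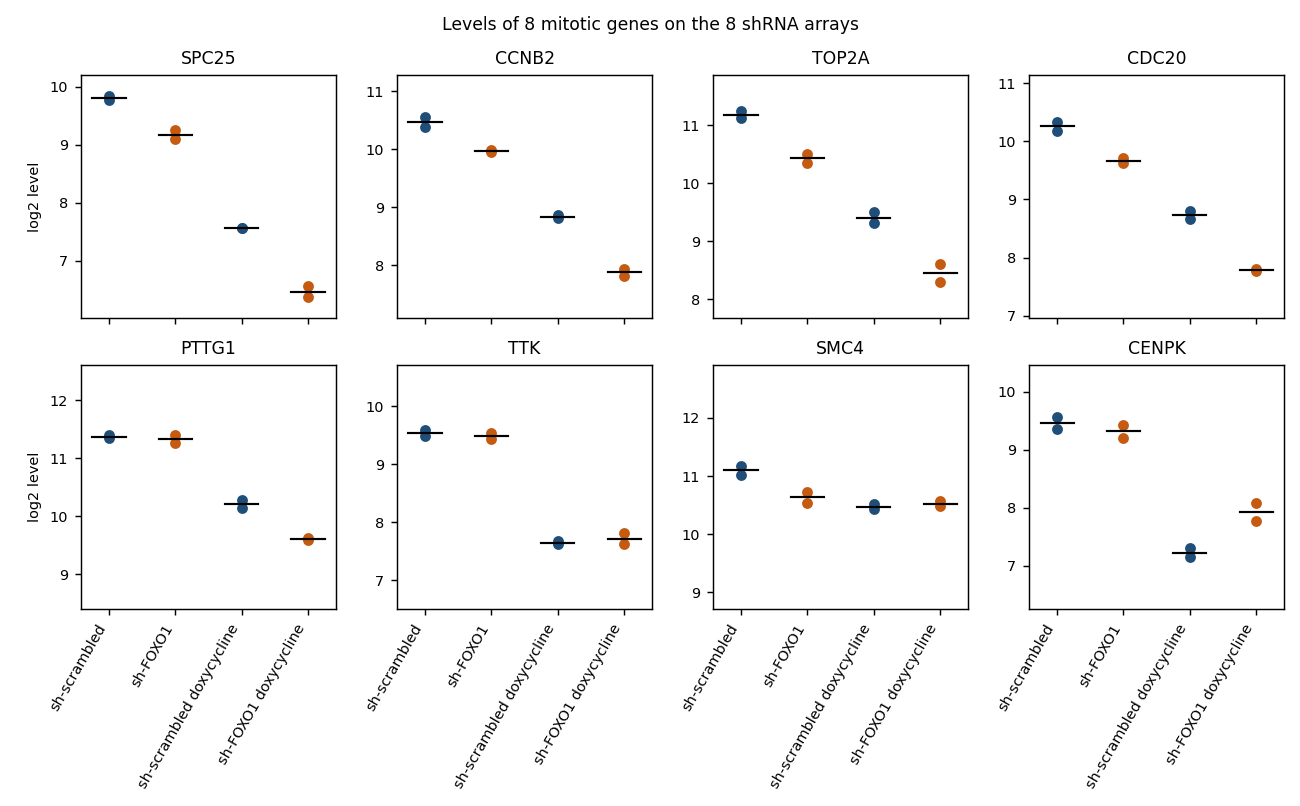
Each panel gives the log2 level of 1 gene on the 8 shRNA arrays (points) with the mean of each group of 2 (lines); blue is sh-scrambled and orange sh-FOXO1, and every axis spans the same number of log2 units. SPC25, CCNB2, TOP2A and CDC20 are lower in sh-FOXO1 than in sh-scrambled cells on either side of doxycycline, the 2 groups with doxycycline overlap for TTK and SMC4, and CENPK is higher in sh-FOXO1 cells with doxycycline than in sh-scrambled cells with it.

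The FOXO1 mutants were measured on 1 array each, so these differences have no replicate check and no test. The FOXO1 probe set stood at 5.84 on the empty vector array, at 8.30 for the AKT-resistant form and at 7.06 for the CDK2-resistant form. With AKT-resistant FOXO1 none of the 52 genes passed a log2 difference of 0.7 from empty vector, against 1.11% of all genes lower and 1.4% higher. Of the 52 values 50 were negative, against 53.4% of all genes, with a median of −0.29 against −0.01 over all genes. They ran from −0.53 for CDC20, which read 10.50 with empty vector and 9.97 with the mutant, to 0.17 for KIF14 (−0.26 on another probe set). On other probe sets above the filter, AURKB (−1.03), ASPM (−0.99) and CDC25C (−0.975, on a dim probe set with a mean of 4.92) lay past the limit. Such further probe sets had the sign of the one used in 30 of 39 cases. On the probe sets used, NDC80 (−0.49), CCNB2 (−0.47), CENPK (−0.45) and INCENP (−0.45) came behind CDC20. The cyclin and CDK1 group had a median of −0.37 and the kinetochore group one of −0.41, while the cytokinesis genes ANLN (−0.02) and ECT2 (−0.18) were nearer 0.

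With CDK2-resistant FOXO1 none of the 52 genes passed 0.7 either, against 0.892% of all genes lower and 1.5% higher. The median was 0.07, against −0.01 over all genes, 17 values were negative, against 52.3% of all genes, and the range was −0.54 (INCENP) to 0.38 (TOP2A). Set directly against each other, AKT-resistant FOXO1 had the lower value in 48 of the 52 genes, against 50.6% of all genes. The median was −0.31, against −0.005 over all genes. On the probe sets used, SPC24 alone passed the limit (3.84% of all genes lower, 3.11% higher), at 7.17 with the former and 7.87 with the latter mutant (−0.70). NUF2 (−0.69), CENPK (−0.65) and CDK1 (−0.63) were next. On other probe sets above the filter ASPM (−0.97), CENPF (−0.86), AURKB (−0.81) and NUSAP1 (−0.79) lay past the limit, and CENPU (0.74) lay past it in the other direction. The sign was that of the probe set used in 28 of 39 cases. The mutant arrays also differed by 1.24 in FOXO1 itself, and the part of that difference was not tested.

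The empty vector array was not level with the sh-scrambled arrays, although all were without doxycycline. It was lower in 42 of the 52 genes, with a median difference of −0.32, against 0.037 over all genes. The extremes were TOP2A at −1.35 and PLK1 at 0.97. With the mean of the empty vector array and both sh-scrambled arrays as control, 11 genes were lower than −0.7 with AKT-resistant FOXO1, led by NUF2 (−1.09), against 3.84% of all genes under that control. With CDK2-resistant FOXO1 the count was 0, against 0.389% of all genes, and the median became −0.16.

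**Figure D4:**
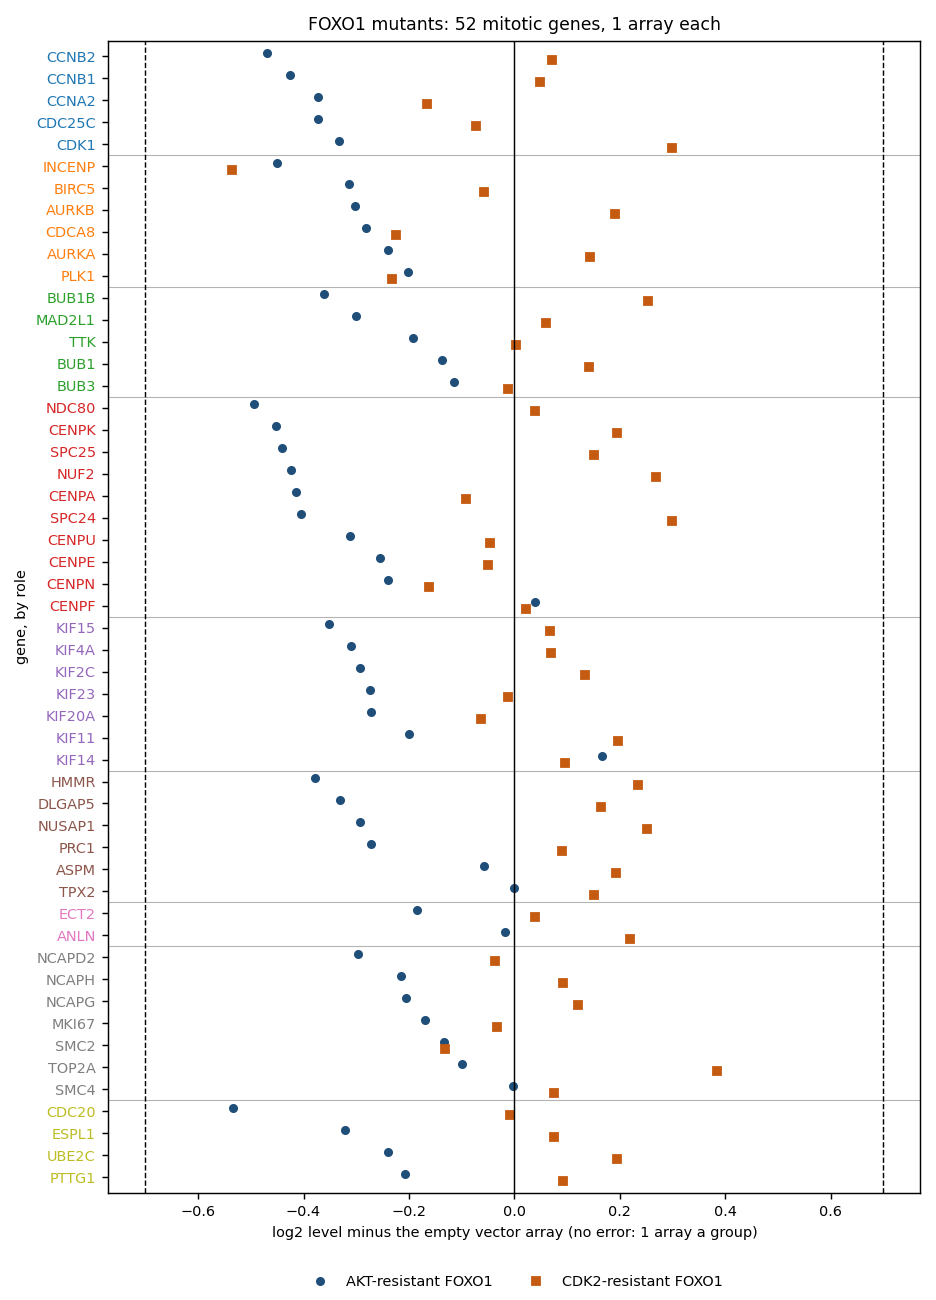
Points give the log2 level of each of the 52 genes minus that of the empty vector array for AKT-resistant (circles) and CDK2-resistant FOXO1 (squares), from 1 array a group and so without error bars; dashed lines mark −0.7 and 0.7. All points lie between −0.54 and 0.38, most circles left of 0 and most squares right of it.

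Other genes of mitosis changed less evenly. Of 132 further genes measured, 57 fell and 1 rose after knockdown alongside sh-scrambled, with a median of −0.81. Over all genes 6.32% fell and 7.03% rose. Kinases, phosphatases and their regulators (10 of 17 fell) included PBK (−2.56), a mitotic kinase, and NEK2 (−1.94), a kinase of centrosome separation. Further kinetochore genes (16 of 26) included CENPH (−2.37) and OIP5 (−2.11), which helps to place CENPA, and further spindle genes (13 of 25) KIF20B (−1.99) and FAM83D (−1.84). Of condensin II, NCAPG2 (−1.84) and NCAPD3 (−1.31) fell among 3 genes. Of cohesin and its regulators, which hold sister chromatids together, 4 of 13 fell, ESCO2 (−2.19) and CDCA5 (−1.69) by the most. Of the anaphase-promoting complex and its partners 2 of 16 fell, the inhibitor FBXO5 (−1.72) and the ubiquitin-conjugating enzyme UBE2S (−1.497). Of 10 further cytokinesis genes CEP55 (−1.95) and RACGAP1 (−1.55) fell, and MYH9, the heavy chain of a nonmuscle myosin, rose by 1.06.

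Of 22 transcription factors and pocket proteins known to act on such promoters, 8 fell, E2F8 (−3.00) and E2F7 (−2.46) by the most. FOXM1 read 9.14 and 8.97 without and 7.34 and 7.06 with doxycycline (−1.85 ± 0.12, adjusted p = 1.1e-06, limma), and MYBL2 9.05 and 8.73 against 7.28 and 7.21 (−1.64 ± 0.12, adjusted p = 1.7e-06, limma). E2F1 stood at −0.56, the pocket protein RBL2, part of DREAM, at −0.08, and CDKN1A, the inhibitor p21, at 0.72, none of them past the limit. After FOXO1 silencing with doxycycline FOXM1 was at −0.49 and MYBL2 at −0.25, neither called. In that comparison 6 of the 132 genes fell (4.55%, against 2.01% of all genes), namely CDKN3 (−1.43), PBK (−1.39), KNL1 (−0.95), FAM83D (−0.82), LIN52 (−0.77) and NEK2 (−0.70). Of the 132, 2 rose (against 2.39% of all genes), the kinetochore gene CENPQ (1.32) and E2F7 (1.14). Without doxycycline 4 of the 132 fell (3.03%, against 1.53% of all genes), E2F8 (−1.05), CENPI (−0.997), CDKN3 (−0.90) and CENPH (−0.70).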

How the data were processed

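RNA of 11 samples in 7 groups was read on 11 Affymetrix HG-U133 Plus 2 arrays. The authors deposited 1 log2 value per probe set and array, summarised and normalised between arrays by a method not given in the sources used here. The base of the logarithm was taken from the range of the values (2.6 to 14.6). Of 54675 probe sets, 41097 had 1 gene symbol in the platform annotation, 1801 several and 11777 none, and genes were named only from the first kind.

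Per gene the probe set with the highest mean was kept, among probe sets that reached the 60th percentile on 1 array or more (12326 genes). One model with 7 groups was fitted with limma 3.58.1 in R 4.3.3 (lmFit and eBayes, 4 residual and 5.11 prior degrees of freedom), with Benjamini-Hochberg adjustment over all genes. The limits were an adjusted p of 0.05 with a log2 fold change of 1 for EWS-FLI1 knockdown and 0.7 otherwise. The procedure was tested on simulated data. Single arrays were compared by their difference alone. The number of arrays limits the precision.

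Replicates were not merged, since in none of the 4 shRNA groups did a gene have the same value on both arrays. Alternatives were the probe set with the largest interquartile range, no filter, arrays centred on their median, no limit on the fold change, a limit of 1 for the single arrays, a replicate block, a 3-array control and leaving out each array, and, added after the data were seen, any listed promoter start, the other probe sets of the members and the same settings for CENPI and E2F7. Of the members, every gene could be named, with array values for the most changed gene of each role, for genes not called after knockdown in sh-scrambled cells and for the 6 largest calls elsewhere. Of the further mitosis lists, the 2 largest calls were named. The members, the lists and the tests were chosen with earlier results of these data known. Listed genes with no probe set of their own or under the filter were not analysed here.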

Additional observations from a re-analysis of the deposited data

Results flagged for a closer look

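A positive interaction was called for 1 of the 52 members and 2 of the 132 further genes, against 1.22% of all genes. For CENPK, an inner kinetochore gene, the change after EWS-FLI1 knockdown differed between sh-FOXO1 and sh-scrambled cells by 0.84 on the log2 scale (limma interaction, adjusted p = 0.018), from −2.23 in sh-scrambled cells to −1.40 in sh-FOXO1 cells. The CENPK call was lost without the first sh-scrambled array with doxycycline, the first sh-FOXO1 array or the second sh-FOXO1 array with doxycycline. E2F7, a repressor of the E2F family, differed by 1.55 (adjusted p = 0.00012, limma), and by 1.47 to 1.63 when 1 array was left out, with the call kept each time. It read 8.61 and 8.75 in sh-scrambled cells, 6.28 and 6.15 with doxycycline, 8.32 and 8.22 in sh-FOXO1 cells, and 7.28 and 7.44 in sh-FOXO1 cells with doxycycline, so the groups with doxycycline did not overlap. CENPI, another inner kinetochore gene, differed by 0.79 (adjusted p = 0.017, limma). Its call was lost without the first sh-scrambled array with doxycycline (0.70, adjusted p = 0.067), the first (0.77, adjusted p = 0.065) or the second sh-FOXO1 array (0.82, adjusted p = 0.052), or the second sh-FOXO1 array with doxycycline (0.62), and on the probe set of largest interquartile range (0.42). It read 7.19 and 7.28 in sh-scrambled cells, 5.25 and 5.45 with doxycycline, 6.21 and 6.27 in sh-FOXO1 cells, and 4.97 and 5.32 in sh-FOXO1 cells with doxycycline. Every CENPI reading with doxycycline lay under the 60th percentile of its array (5.71 to 5.72). The part of such a dim signal in the interaction was not tested. In CENPI the groups without doxycycline were apart and those with it overlapped, in CENPK it was the reverse, and in E2F7 both pairs of groups were apart.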

How the results depend on the processing

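The counts of genes lower after EWS-FLI1 knockdown stayed between 47 and 52 of 52 in sh-scrambled cells and between 47 and 51 in sh-FOXO1 cells under every alternative run, and between 47 and 49 and between 48 and 49 when 1 array was left out. After FOXO1 silencing with doxycycline 9 to 13 genes were lower with 1 array left out, and 41 with no limit on the fold change. Without doxycycline the count of 1 became 4 with the probe set of largest interquartile range (TOP2A, NUSAP1, MAD2L1 and CENPU, the last at −1.60 there and −0.48 on the probe set used), 36 with no limit on the fold change and 0 to 2 with 1 array left out. The interaction count of 1 became 6 with no limit on the fold change and 0 to 1 with 1 array left out. For AKT-resistant FOXO1 the count of 0 became 1 with the largest interquartile range (ASPM) and 11 with the 3-array control (3.84% of all genes under it), which moved the median from −0.29 to −0.46. With that control the median for CDK2-resistant FOXO1 reversed from 0.07 to −0.16. For AKT-resistant against CDK2-resistant FOXO1 the count of 1 became 3 with the largest interquartile range, 2 with centred arrays and 0 with a limit of 1. The CHR stood in 34 of 46 promoters when any listed start was searched, against 33. A replicate block gave 47, 49, 11, 1 and 1 genes in the 5 replicated comparisons, the numbers found without it, and changed the call of none of the 52 genes. Over all genes it changed 19 interaction calls and 2 calls of silencing without doxycycline. Deviations of same-numbered arrays correlated at 0.31 to 0.57 across genes in all 6 pairs of groups, so same-numbered arrays deviated together, while the labels do not say what a number marks and the values reported are those without the block. With 2 arrays a group, and 1 array for each plasmid, small differences cannot be told from the spread between arrays.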
